A study of Rattus norvegicus with 10 samples.

Results

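The let-7 family was followed in the dorsal vagal complex (DVC) of the rat, a brainstem region that holds part of the vagal motor neurons projecting to the heart. Its members were every microRNA of the panel whose name began with rno-let-7, together with rno-miR-98, which gave 8 of the 420 microRNA probes. They were rno-let-7a, rno-let-7b, rno-let-7c, rno-let-7d, rno-let-7e, rno-let-7f, rno-let-7i and rno-miR-98. All 8 were counted above the negative controls in all 10 samples and were among the 253 microRNAs that passed the detection filter. Each sample was a tissue punch from 1 male Sprague Dawley rat, and microRNAs were counted by the NanoString nCounter assay, which ligates a tag to each mature microRNA and counts fluorescent barcodes without amplification. The RIPC+LAD group (n = 2) received remote ischemic preconditioning (RIPC), a brief arrest of blood flow in the hindlimbs, 2 h before a coronary artery of the heart, the left anterior descending (LAD), was ligated. The LAD group (n = 3) received the ligation alone, the RIPC group (n = 2) the preconditioning alone, and the age-matched controls (AMC, n = 3) neither. Ligated animals were sampled 24 h after the ligation. No sham-operated animals were among these samples, so that an effect of surgery cannot be told apart from that of the treatments. A punch holds neurons, glia, vessels and ependyma together, and in such bulk RNA fewer cells of a type and less RNA per cell cannot be told apart.

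let-7 microRNAs were first described in the nematode Caenorhabditis elegans as timers of development, and in mammals they accumulate as neural progenitors leave the cell cycle and remain abundant in the adult brain. Each mature strand guides an Argonaute protein to messenger RNAs that pair with its seed, the bases near its 5′ end, and known mammalian targets include Lin28, Hmga2 and Ras genes. The RNA-binding proteins Lin28a and Lin28b in turn block the processing of let-7 precursors, so that members are held down together in immature cells. The members come from several separate gene clusters, which allows the levels of individual members to differ in the same tissue.

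The mature sequences are shown because all 8 members share 1 seed and differ only outside it. Cross-reaction between probes for members that differ at 1 base was not measured here. They were taken from RefSeq (rat build GRCr8), where all 8 names matched a 5p strand of 22 bases. They are written 5′ to 3′ with the seed, bases 2 to 8, in capitals.
rno-let-7a: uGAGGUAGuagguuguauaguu
rno-let-7b: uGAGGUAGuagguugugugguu
rno-let-7c: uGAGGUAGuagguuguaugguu
rno-let-7d: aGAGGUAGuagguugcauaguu
rno-let-7e: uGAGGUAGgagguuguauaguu
rno-let-7f: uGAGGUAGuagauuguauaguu
rno-let-7i: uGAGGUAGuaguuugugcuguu
rno-miR-98: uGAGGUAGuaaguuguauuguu

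Counting positions from 1 at the 5′ end, with the base of let-7a first, let-7c differed from let-7a by A19G alone, let-7e by U9G alone and let-7f by G12A alone. let-7b differed by A17G and A19G, let-7d by U1A and U16C, and miR-98 by G11A and A19U. let-7i was the most distant from let-7a, with G12U, A17G, U18C and A19U. Over the 28 pairs of members the number of differing bases ran between 1 and 6. Of the 420 panel names 364 could be matched to RefSeq, and outside the family 0 of these shared the let-7 seed.

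RefSeq placed the 8 members in 11 genes, with 2 genes each for let-7a, let-7c and let-7f. Coordinates are those of the mature strands listed above, in GRCr8. Distances are gaps between genes, each gene taken to span all of its mature strands and not only the strand listed. They are therefore not the distances between the coordinates given. Mirlet7a1 (chr17:16320145-16320166), Mirlet7f-1os (chr17:16320508-16320529) and Mirlet7d (chr17:16322273-16322294) lie on the plus strand inside the lncRNA LOC120097935, 290 and 1688 bases apart. Mirlet7c2 (chr7:118683636-118683657) and Mirlet7b (chr7:118684044-118684065) lie 338 bases apart. Mirlet7f2 (chrX:24460052-24460073) and Mir98 (chrX:24460663-24460684) lie 540 bases apart inside the ubiquitin ligase gene Huwe1. Mirlet7e (chr1:67350243-67350264) lies inside Spaca6, 113 bases from Mir99b and 379 from Mir125a. Mirlet7c1 (chr11:29688127-29688148) lies 664 bases from Mir99a, and Mirlet7a-2 (chr8:50805219-50805240) lies 6858 bases from Mir100. Mirlet7i (chr7:60527935-60527956, minus strand) had no other microRNA gene on its strand within 10000 bases. A count for let-7a, let-7c or let-7f cannot be assigned to 1 of its 2 genes, since the mature strands are identical.

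The let-7 family was a large part of the microRNA counts in every sample. The 8 members took 20.4% and 19.3% of all microRNA counts in RIPC+LAD animals, 14.1%, 15.2% and 24.6% in LAD animals, 18.2% and 15.3% in RIPC animals, and 21.8%, 20.4% and 17.1% in AMC animals. The mean share was 19.9% ± 0.764 (SD, n = 2) in RIPC+LAD, 17.98% ± 5.75 (SD, n = 3) in LAD, 16.8% ± 2.07 (SD, n = 2) in RIPC and 19.8% ± 2.45 (SD, n = 3) in AMC. The range of the LAD animals covered that of every other group. LAD 3, the sample with the highest share, was also the shallowest, with 28485 microRNA counts where the others held between 42893 and 102824. In LAD 3 let-7d was the most abundant microRNA of the panel, at 10.2% of counts, whereas in 8 of the other samples miR-125b-5p was the first and in LAD 1 miR-204, a choroid plexus microRNA, at 18.3%. Leaving out LAD 3 gave a mean share of 14.7% in the LAD group.

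**Figure D1:**
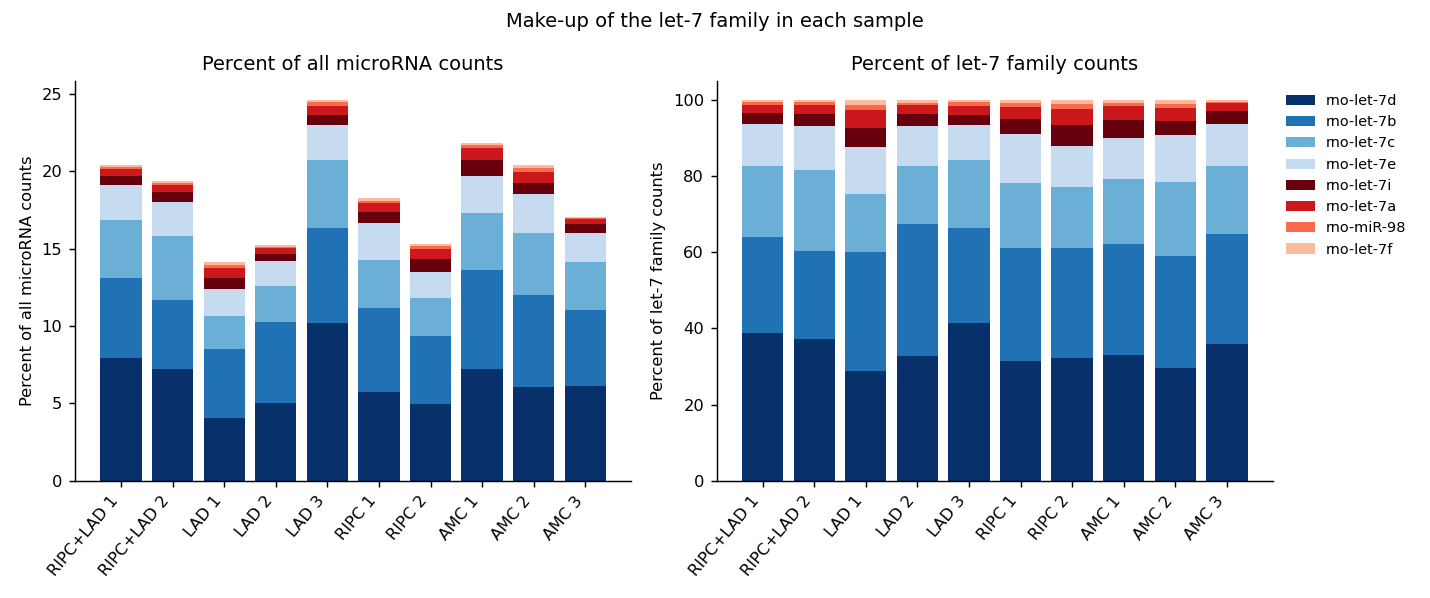
Stacked bars of the let-7 members in each of the 10 samples, as percent of all microRNA counts (left) and as percent of the family's own counts (right), members stacked in order of mean count. The family sum reached 24.6% in LAD 3 and 14.1% in LAD 1, and let-7d held between 28.7% and 41.4% of the family.

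Ordered by mean count over the 10 samples, let-7d was first (4981 counts), followed by let-7b (4171), let-7c (2635), let-7e (1689), let-7i (565.8), let-7a (456.6), miR-98 (132.4) and let-7f (115.0). These are counts per probe, and since ligation and capture differ between probes the order is that of the assay and need not be that of molecules. let-7d was above let-7b in 8 of 10 samples and miR-98 above let-7f in 7 of 10, so these neighbours in the order overlapped. The other 5 neighbouring pairs kept their order in 10 of 10 samples, although let-7i exceeded let-7a by as little as 1.01-fold in LAD 1. let-7d held between 28.7% and 41.4% of the family in each sample and let-7b between 23.2% and 34.6%. The 4 least abundant members together held 6.40% and 6.85% of the family in RIPC+LAD animals, 12.4%, 6.80% and 6.52% in LAD animals, 8.86% and 12.0% in RIPC animals, and 9.96%, 9.22% and 6.31% in AMC animals. The LAD animals alone covered nearly the whole range of this share over the 10 samples.

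The first question was whether preconditioning before the ligation was accompanied by a different level of the family than ligation alone. Levels are given as log2 CPM, the log2 of counts divided by library total, scaled by TMM, a factor that sets the bulk of microRNAs equal between samples, and differences as log2 fold changes ± SE from edgeR's quasi-likelihood test fitted over all samples. With p-values adjusted by Benjamini-Hochberg over the 253 detected microRNAs, 0 of 8 members passed 0.05 in RIPC+LAD against LAD, where 0% of all microRNAs passed. By unadjusted p under 0.05, 0 of the 8 members and 44 of the 253 microRNAs were counted. DESeq2 also called 0 members, here and in every other comparison. Over all 253 microRNAs it called 1 in RIPC+LAD against AMC and 0 in each other comparison. The members' differences lay between -0.41 and 0.56 with a median of 0.071, beside a median of 0.019 over all microRNAs.

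let-7c, with 1 gene next to Mir99a and 1 beside Mirlet7b, had 15.32 and 15.43 log2 CPM in RIPC+LAD animals, against 14.44, 14.41 and 15.39 in LAD animals. Both preconditioned animals and LAD 3 were high, and the groups overlapped at LAD 3. The difference was 0.56 ± 0.34 (adjusted p = 0.370, 95% interval -0.16 to 1.28). let-7d, the most abundant member, had 16.38 and 16.24 log2 CPM in RIPC+LAD animals, against 15.34, 15.50 and 16.61 in LAD animals, a difference of 0.38 ± 0.36 (adjusted p = 0.581). LAD 3 again lay with or above the preconditioned animals, apart from LAD 1 and LAD 2. Without LAD 3 the differences were 0.90 for let-7c and 0.83 for let-7d, both with an edgeR adjusted p of 0.127, where the adjusted p over all alternatives ran between 0.127 and 0.860 for let-7c and between 0.127 and 0.916 for let-7d.

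let-7e, whose gene lies beside Mir99b and Mir125a, had 14.57 and 14.54 log2 CPM in RIPC+LAD animals, against 14.13, 13.86 and 14.44 in LAD animals. It was the only member whose 2 groups did not overlap, 1 of 8 members where 37.9% of the 253 microRNAs did not overlap in either direction, and its difference was 0.39 ± 0.31 (adjusted p = 0.498). As a share of all counts, without TMM, its groups overlapped. The remaining 5 members had differences between -0.41 and 0.14. miR-98, at the low end, had 10.41 log2 CPM in both RIPC+LAD animals, against 10.85, 9.83 and 11.41 in LAD animals, so that the ligated animals lay on both sides of the preconditioned ones. let-7b, the second most abundant member, differed by 0.0037 ± 0.29 between the 2 groups.

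**Figure D2:**
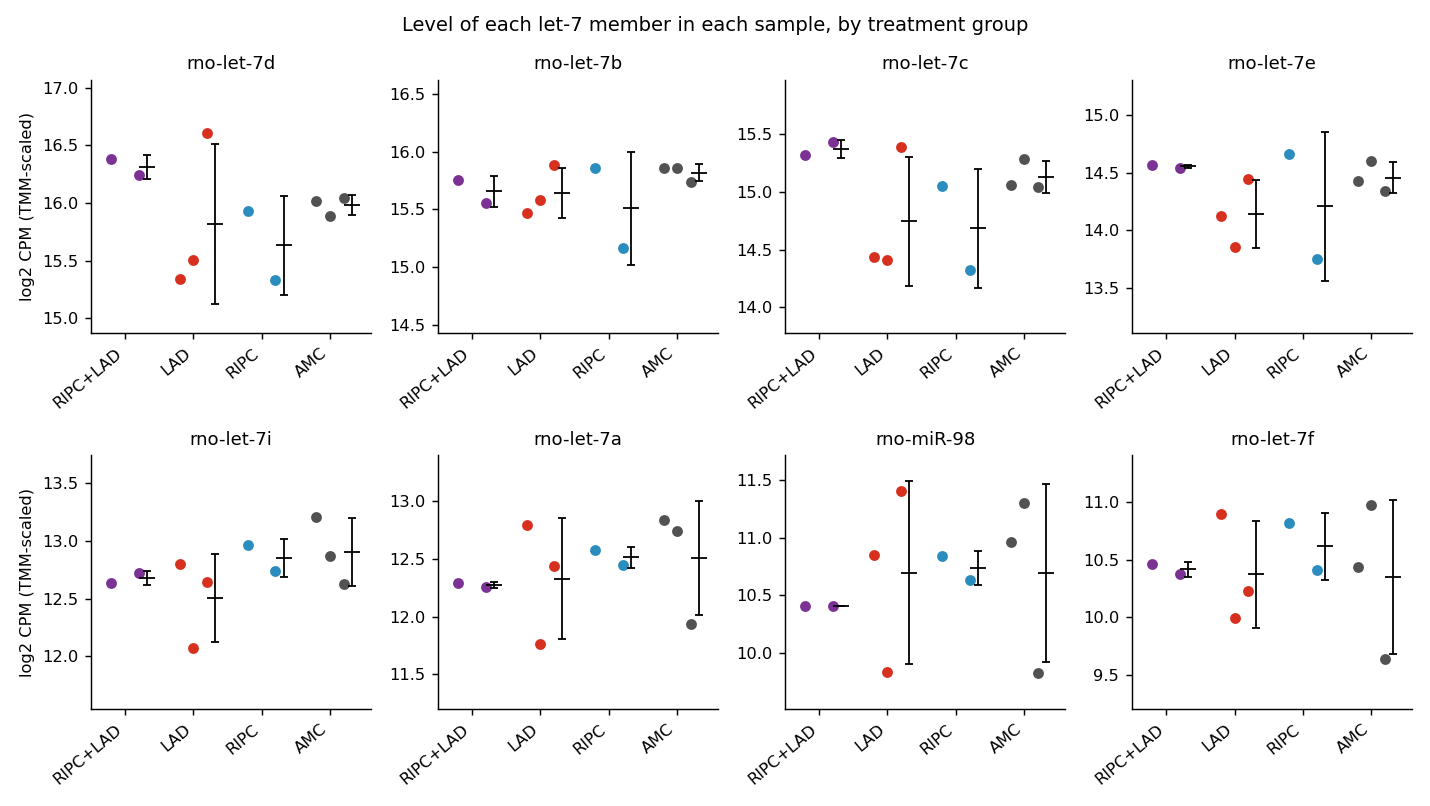
Level of each let-7 member in log2 CPM (vertical axis, each panel spanning the same number of units) in every sample of the RIPC+LAD, LAD, RIPC and AMC groups, with the group mean and SD beside the points, and members in order of mean count. The 2 RIPC+LAD animals lie close together for every member, while miR-98 spans 9.83 to 11.41 among LAD animals.

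Against animals with preconditioning alone, the RIPC+LAD group addresses what the ligation added in preconditioned animals. Of the 8 members, 0 passed the edgeR threshold, as did 0% of all microRNAs, and 4 were higher and 4 lower, with a median of -0.035 beside 0.067 over all microRNAs. By unadjusted p under 0.05, 0 members and 17 of 253 microRNAs were counted. let-7c differed by 0.65 ± 0.38 (adjusted p = 0.572), with 15.05 and 14.32 log2 CPM in the RIPC animals to set beside the RIPC+LAD values above. let-7d differed by 0.65 ± 0.40 (adjusted p = 0.586), with 15.93 and 15.33 log2 CPM in RIPC animals. Between these groups of 2, 5 of 8 members did not overlap, let-7c and let-7d higher and let-7a, let-7i and miR-98 lower in RIPC+LAD, where 49.0% of all microRNAs did not overlap. As a share of all counts, without TMM, let-7f was also lower without overlap, and the rate over all microRNAs was not counted there.

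Against AMC, the RIPC+LAD animals gave 0 members past the threshold (0% of all microRNAs), 3 members higher and 5 lower, and a median of -0.095 beside -0.014 over all microRNAs. By unadjusted p under 0.05, 0 members and 22 of 253 microRNAs were counted. let-7c and let-7d did not overlap with AMC and were higher, 2 of 8 members where 30.8% of all microRNAs did not overlap. Without TMM, let-7c overlapped and let-7d did not. For let-7d the AMC animals had 16.02, 15.88 and 16.04 log2 CPM, and the difference was 0.33 ± 0.36 (adjusted p = 0.742). For let-7c they had 15.06, 15.29 and 15.04 log2 CPM, and the difference was 0.24 ± 0.34 (adjusted p = 0.786). miR-98 had the lowest value of the 8, a difference of -0.42 ± 0.44. The strongest positive control of the assay counted 6725 and 7264 in the RIPC+LAD animals, against 13749, 12597 and 11724 in the AMC animals. Within these 2 groups that assay difference cannot be told apart from the treatment.

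Ligation alone against AMC gave 0 of 8 members past the threshold, where 0% of all microRNAs passed, and 0 of 8 members with groups that did not overlap, where 9.09% of all microRNAs did not. By unadjusted p under 0.05, 0 members and 14 of 253 microRNAs were counted. All 8 fitted differences were below 0, though only between 4 and 8 were under the alternatives, with 6 under DESeq2. Their median was -0.16 beside -0.012 over all microRNAs, and let-7f (-0.0023) and miR-98 (-0.0033) lay near 0. let-7i, which comes from a single gene, had 12.80, 12.07 and 12.65 log2 CPM in LAD animals, against 13.21, 12.87 and 12.63 in AMC animals, a difference of -0.38 ± 0.27 (adjusted p = 0.967). The AMC 3 value lay below those of LAD 1 and LAD 3, and the groups overlapped. let-7c differed by -0.32 ± 0.31 and let-7e by -0.30 ± 0.28, both with an adjusted p of 0.967. Without LAD 2 the family median was 0.0026, and without LAD 3 the let-7c difference was -0.67.

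Preconditioning alone against AMC likewise gave 0 of 8 members past the threshold (0% of all microRNAs) and 0 of 8 members without overlap, where 11.9% of all microRNAs did not overlap. As a share of all counts, without TMM, let-7d did not overlap and was lower in RIPC. It held 5.73% and 4.95% in RIPC animals, against 7.19%, 6.06% and 6.11% in AMC animals. How many of all microRNAs did not overlap without TMM was not counted. Fitted differences were lower for 7 members and higher for let-7f, with a median of -0.13 beside -0.026 over all microRNAs, and between 2 and 8 members were lower under the alternatives. By unadjusted p under 0.05, 0 members and 3 of 253 microRNAs were counted. let-7c had the largest, -0.40 ± 0.35 (adjusted p = 0.997). RIPC 1, with 15.05 log2 CPM of let-7c, lay within the AMC values and RIPC 2, with 14.32, below them. The same held for let-7b, let-7d and let-7e, whose lowest values of the series were those of RIPC 2, except that let-7e of RIPC 1 lay above the AMC animals. Without RIPC 2 the let-7c difference was -0.08 and without RIPC 1 it was -0.84. The 3 comparisons with AMC share the same control animals, and those of RIPC+LAD share their 2 animals, so they are not independent of each other.

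**Figure D3:**
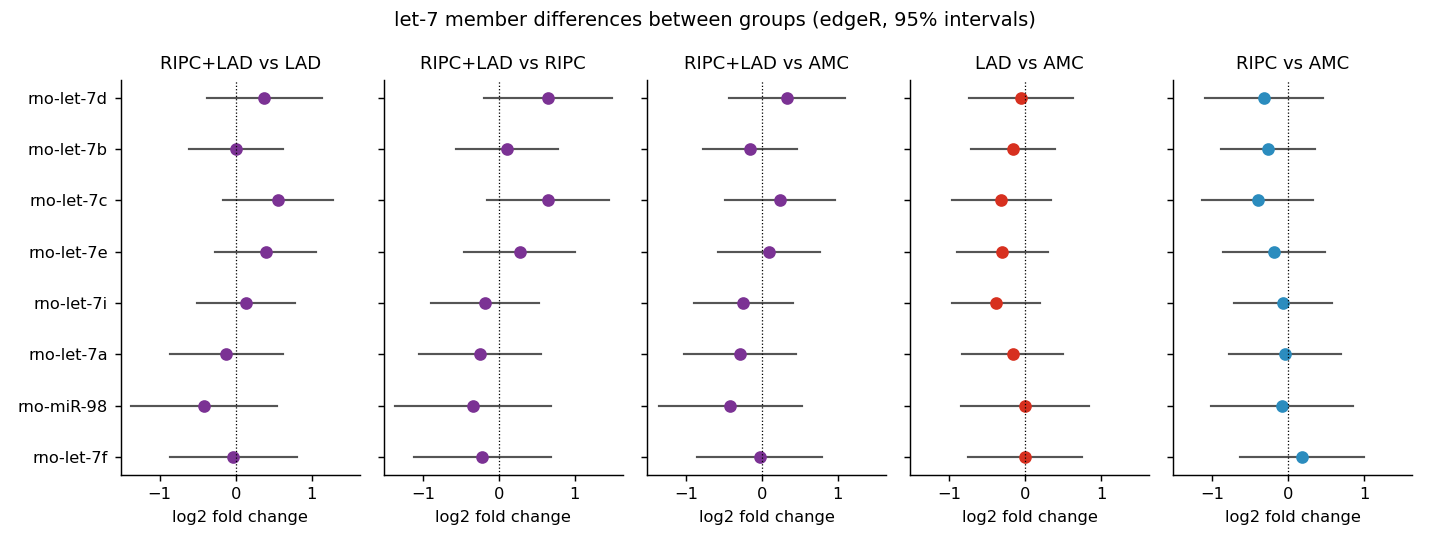
Fitted log2 fold change of each let-7 member (points) with its 95% interval (lines) in the 5 comparisons between groups, members in order of mean count from the top. Every interval includes 0, and let-7c at 0.65 and let-7d at 0.65 in RIPC+LAD against RIPC are the highest points.

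The design also allows the difference made by preconditioning in ligated animals to be set against that in unligated animals. For this interaction 0 of 8 members passed the threshold (0% of all microRNAs), and by unadjusted p under 0.05 there were 0 members and 31 of 253 microRNAs. let-7c gave 0.96 ± 0.49 (adjusted p = 0.438), let-7d 0.70 ± 0.51 (adjusted p = 0.580) and let-7e 0.58 ± 0.45 (adjusted p = 0.580), while let-7a, let-7f and miR-98 lay between -0.33 and -0.078. In 1 test over all 4 groups, 0 members passed where 0% of all microRNAs did (22 of 253 by unadjusted p under 0.05), and the smallest adjusted p of a member was that of let-7c, 0.719. An exact permutation test of the F ratio over all 25200 placements of the 10 samples, which has no direction, gave let-7c an adjusted p of 0.784, the smallest of the 8, and called 0 of 253 microRNAs (14 by unadjusted p under 0.05).

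Ratios between members within a sample do not depend on the scaling between samples. The ratio of let-7d to let-7b counts was 1.55 and 1.60 in RIPC+LAD animals, 0.917, 0.949 and 1.65 in LAD animals, 1.05 and 1.12 in RIPC animals, and 1.12, 1.02 and 1.24 in AMC animals. It was high in both RIPC+LAD animals and in LAD 3, and LAD 1 and LAD 2 were the only samples in which let-7b exceeded let-7d. The ratio of let-7c to let-7b was 0.741 and 0.914 in RIPC+LAD animals, 0.489, 0.444 and 0.708 in LAD animals, 0.572 and 0.557 in RIPC animals, and 0.576, 0.671 and 0.620 in AMC animals. Both RIPC+LAD animals lay above every other sample for this ratio, which compares members that differ at 1 base. These ratios were picked after the values had been seen and were not tested.

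The members varied in different ways across the 10 samples. Pearson's r of log2 CPM is given here as a description over samples that share normalization and group differences. The 4 most abundant members, let-7d, let-7b, let-7c and let-7e, had a mean r of 0.80 over their 6 pairs, with let-7c and let-7d at 0.92. The 4 least abundant members, let-7i, let-7a, miR-98 and let-7f, had a mean r of 0.73 over their 6 pairs, with let-7a and let-7i at 0.85. Over the 16 pairs with 1 member of each kind the mean r was 0.20, and let-7d with let-7f gave -0.20. Subtracting group means left 0.83, 0.79 and 0.30, and leaving out each sample in turn gave mean r between 0.70 and 0.85, between 0.63 and 0.81 and between -0.01 and 0.33 for the 3 kinds of pair.

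The samples were divided at 10000 counts of the strongest positive control, a cut chosen for this purpose. This gave a high set (AMC 1 to 3, RIPC 2 and LAD 1) and a low set (RIPC 1, LAD 2, LAD 3 and both RIPC+LAD animals). AMC and RIPC+LAD each lay wholly in 1 set, so a direct comparison of them is also one of the sets. Within the high set the mean r of the 3 kinds of pair was 0.92, 0.74 and 0.09, but within the low set it was 0.64, 0.75 and 0.67. The low r between abundant and scarce members over all samples was thus not found within the low set, each set being 5 samples. AMC 3, of the high set, had 11.94 log2 CPM of let-7a against 12.84 and 12.74 in the other AMC animals while its let-7d, at 16.04, was the highest of the 3.

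The values of r did not follow the number of differing bases. let-7a and let-7c, which differ at 1 base, had an r of 0.11, whereas let-7a and let-7i, which differ at 4, had 0.85. let-7c and let-7d, which differ at 3 bases and share no gene cluster, had 0.92. The median r was 0.53 over the 4 pairs that differ at 1 base and 0.58 over the 6 pairs that differ at 4. Among the 5 pairs with genes in a shared cluster, r was 0.81 for let-7a with let-7f, 0.73 for let-7b with let-7c and 0.69 for let-7f with miR-98, all above the median of 0.36 over the 28 pairs. The other 2 pairs, of let-7d with let-7a (-0.06) and with let-7f (-0.20) from the chromosome 17 cluster, lay below it.

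**Figure D4:**
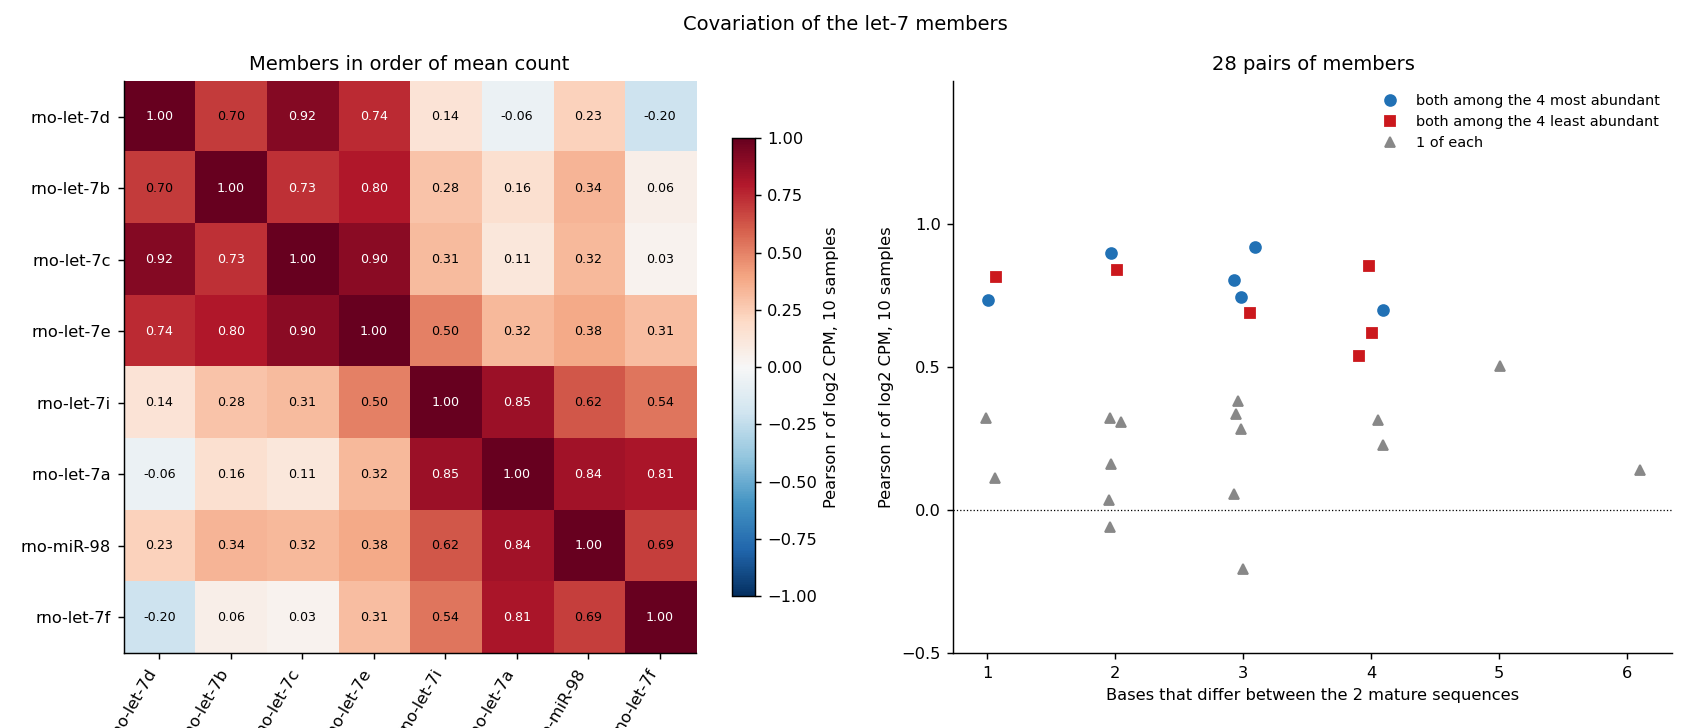
Pearson's r of log2 CPM over the 10 samples for each pair of members, as a matrix in order of mean count (left) and against the number of bases at which the 2 mature sequences differ (right, slightly jittered along the horizontal axis). Pairs within the 4 most abundant or within the 4 least abundant members lie at 0.54 or above, and the 16 mixed pairs at 0.50 or below, at each number of differences.

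Among the 133 other microRNAs above background in all samples, those most like the mean log2 CPM of the 8 members over the 10 samples were miR-126 (r = 0.94), an endothelial microRNA, miR-10a-5p (0.94), from a Hox cluster, miR-369-3p (0.80), miR-146a (0.79), induced in inflammation, and miR-384-3p (0.74). The median r over the 133 was 0.01. Between 3 and 5 of these 5 names stayed among the first 5 when each sample was left out. Single members had other nearest microRNAs, such as miR-130b for let-7c (0.93), miR-132 for let-7d after let-7c (0.92), miR-872 for miR-98 (0.93) and miR-26b for let-7a after let-7i (0.85). The most opposite to the family mean were miR-29b (-0.87), miR-219-5p (-0.86) and miR-338 (-0.77), of which miR-219-5p and miR-338 are abundant in oligodendrocytes. The summed share of the 3 oligodendrocyte microRNAs ran between 0.982% and 1.76% of counts in RIPC+LAD, 1.99% and 5.14% in LAD, 1.26% and 3.10% in RIPC, and 1.42% and 3.64% in AMC. The 3 vascular microRNAs, with miR-126 among them, ran between 2.41% and 2.66% in RIPC+LAD, 2.10% and 3.20% in LAD, 2.44% and 2.76% in RIPC, and 2.43% and 3.45% in AMC. This sum was mostly miR-126, with 813 to 3158 counts a sample, against 49 to 259 for miR-145 and 3 to 20 for miR-143. In RIPC+LAD against LAD miR-126 differed by 0.043, miR-145 by 0.49 and miR-143 by -1.02, so the 3 did not move together. The part of the oligodendrocyte and vascular microRNAs in the levels of the family was not tested.

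3 probes of the panel target strands antisense to let-7 genes, and 1 of them is shown with the member it opposes, in the same 5′ to 3′ writing, because its level could be followed in every sample.
rno-let-7e: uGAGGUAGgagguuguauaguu
rno-miR-3596c: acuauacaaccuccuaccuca

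rno-miR-3596c lies opposite Mirlet7e, and all of its 21 bases are the reverse complement of let-7e. Its counts were low, 8 and 11 in RIPC+LAD animals, 37, 9 and 15 in LAD animals, 15 and 27 in RIPC animals, and 34, 24 and 18 in AMC animals, each above the negative control threshold of its sample. Its difference in RIPC+LAD against LAD was -1.57 ± 0.48, with an unadjusted p of 0.00492 and an adjusted p of 0.114 in edgeR, so it did not pass the threshold. By unadjusted p under 0.05, 44 of 253 microRNAs were counted in this comparison. The RIPC+LAD animals were the lowest of the series in log2 CPM, and 37.9% of all microRNAs did not overlap between RIPC+LAD and LAD. The counts of 8 and 11 stood against negative control thresholds of 7.08 and 4.75, so this difference rests on low counts. Over the 10 samples the r of miR-3596c with let-7e was -0.29. rno-miR-3596b, opposite Mirlet7d, was above its threshold in 3 samples, and rno-miR-3596d, opposite Mirlet7f-1os, in 0.

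The microRNAs whose genes lie beside let-7 genes, together with miR-125b-5p of the miR-125 family, showed 0 of 5 past the threshold in each comparison. Of all 253 microRNAs, 0% passed it in each. miR-100, whose gene lies near Mirlet7a-2, had 13.53 and 13.48 log2 CPM in RIPC+LAD animals, against 12.65, 12.44 and 12.75 in LAD animals, a difference of 0.89 ± 0.30 (unadjusted p 0.00951, edgeR adjusted p = 0.127). The groups did not overlap, as was so for 37.9% of all microRNAs in this comparison, and let-7a itself differed by -0.12 ± 0.35. miR-125a-5p, which shares a cluster with let-7e, had 16.09 and 16.23 log2 CPM in RIPC+LAD animals, against 15.36, 15.56 and 15.68 in LAD animals, a difference of 0.62 ± 0.29 (adjusted p = 0.267). miR-99a, beside Mirlet7c1, differed in the other direction, by -0.59 ± 0.29 (adjusted p = 0.278), where let-7c differed by 0.56. miR-99b differed by 0.47 ± 0.33 and miR-125b-5p by 0.45 ± 0.28. Across the 10 samples r was 0.69 for let-7e with miR-125a-5p, 0.07 for let-7e with miR-99b, -0.22 for let-7c with miR-99a and -0.12 for let-7a with miR-100. For miR-125b-5p it was -0.39 with let-7a and 0.34 with let-7c.

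**Figure D5:**
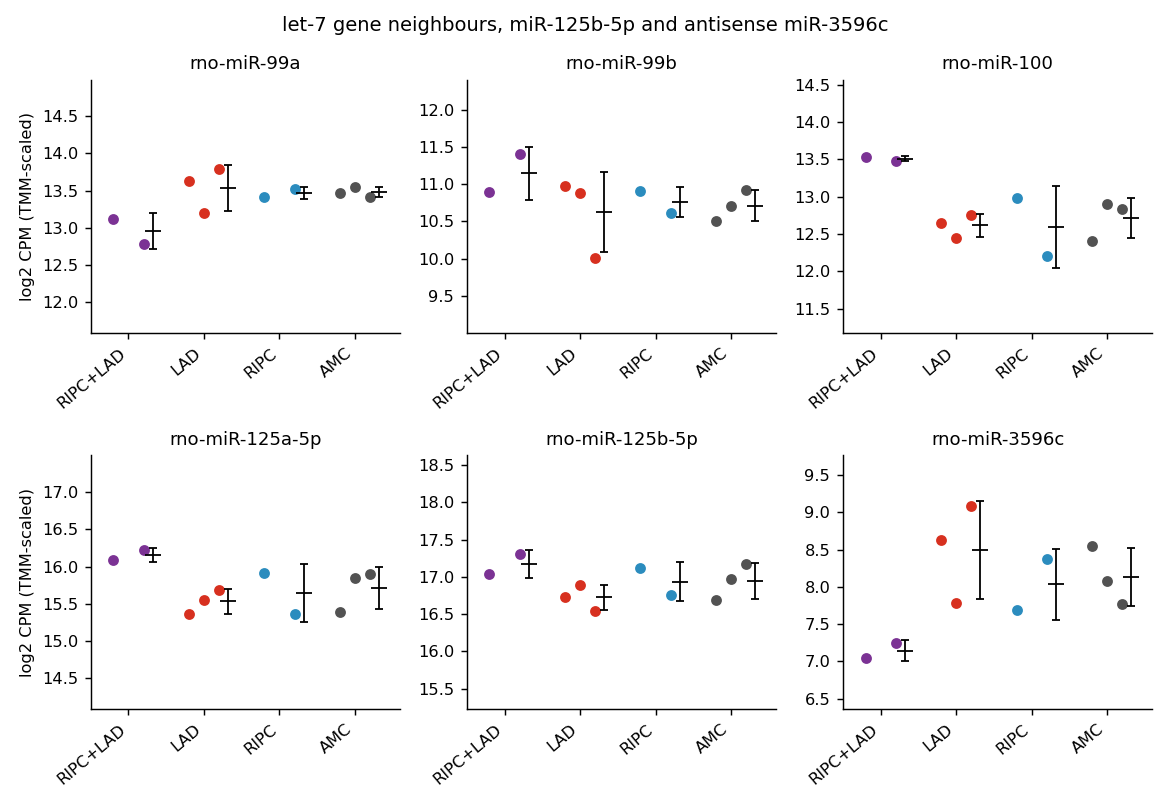
Level in log2 CPM (vertical axis, each panel spanning the same number of units) of 4 microRNAs encoded near let-7 genes, of miR-125b-5p and of miR-3596c, antisense to let-7e, in every sample of the RIPC+LAD, LAD, RIPC and AMC groups, with group mean and SD beside the points. miR-100 lies at 13.48 and 13.53 in RIPC+LAD animals, above every other sample, and miR-3596c at 7.04 and 7.25, below every other sample.

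The ligation controls, synthetic RNAs carried through the tag ligation, amounted to 137% and 213% of the strongest positive control in RIPC+LAD animals, 45.0%, 67.0% and 30.0% in LAD animals, 98.8% and 48.1% in RIPC animals, and 59.4%, 48.3% and 105% in AMC animals. The RIPC+LAD animals were the highest of the series. The positive control that divides this measure counted 6725 and 7264 in them and between 7049 and 14579 in the other samples. The ranking therefore rests in part on that control. With this measure as a covariate the family median in RIPC+LAD against LAD was 0.66 in place of 0.07, with 0 members past the threshold. Since both RIPC+LAD animals held its highest values, the covariate cannot be fully told apart from that group. The 4 mRNA probes took between 4.73% and 22.2% of the microRNA total, with the highest value in LAD 3. Animal numbers shared a prefix in 3 pairs, the RIPC+LAD animals, LAD 2 with LAD 3 and AMC 2 with AMC 3, each within 1 group. The labels do not say what the prefix stands for. No other sample carried the prefix of the RIPC+LAD animals, so it cannot be told apart from that treatment. The closeness of the 2 RIPC+LAD animals to each other has the same limit. The 6 neuronal microRNAs, such as miR-124 and miR-9, were above background in every sample and summed to between 10.7% and 15.0% of counts. Of the 5 immune and microglia microRNAs on the panel, miR-146a and miR-150 were above background in all 10 samples. miR-142-3p was above it in 9, miR-142-5p in 3 and miR-223 of myeloid cells in 0. Choroid plexus and ciliated cell microRNAs reached 18.7% in LAD 1. The part of these measures in the let-7 values was not tested beyond the covariate.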

How the data were processed

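The deposited table held whole-number counts per probe for 10 samples, and a second deposited table held log2 values. For the 8 members the deposited log2 values equalled log2 of counts per 100000 microRNA counts to within 4.69e-09, so the authors had scaled them by total microRNA count alone. No source used here names the counting software. The 4 groups came from the treatment labels, and separate animal numbers marked separate animals. No 2 samples agreed within sampling noise (chi-square per degree of freedom of 5.44 or more). The panel gives no arm suffix for the let-7 names, which were taken as the 5p strands.

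A microRNA was detected when its count exceeded the mean plus 2 SD of the 8 negative controls in at least 2 samples. Total microRNA counts ran between 28485 and 102824 and lie behind the precision of each value. edgeR 4.0.16 (R 4.3.3) fitted 4 group means to all samples with TMM factors, and p-values were adjusted over 253 microRNAs. Log2 CPM used a prior count of 2. SE is the size of the log2 fold change divided by the square root of F. All 8 members are named, and single differences larger than their SE were followed through the alternatives. Alternatives used DESeq2 1.42.0, limma 3.58.1, other scalings, background subtraction, covariates and leaving out samples. The fit was tested on simulated counts. The members, lists and measures were chosen with earlier results of these data known.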

Additional observations from a re-analysis of the deposited data

How the results depend on the processing

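Under every alternative run, 0 members were called, in each comparison, in the test over all 4 groups and, for the scalings, filters and left-out samples tried there, in the exact permutation test. The 12 member differences larger than their SE kept their direction in all 270 alternative values, and the smallest adjusted p among these was 0.127. These 12 were picked by their size in the main fit, and the alternatives reuse mostly the same samples. Their agreement in direction follows in large part from that choice and is not independent support. The other 36 differences took the opposite sign in 135 of 810 alternative values, so the number of members below 0 was unstable: between 4 and 8 for LAD against AMC, 2 and 8 for RIPC against AMC, 1 and 5 for RIPC+LAD against LAD, 0 and 6 for RIPC+LAD against RIPC, and 1 and 6 for RIPC+LAD against AMC.

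The family median moved by more than the pooled SD between replicates (0.26) with the ligation control as a covariate, to 0.66 in RIPC+LAD against LAD, 0.27 against RIPC, 0.37 against AMC and 0.62 for the interaction, and the cause was not tested. Alternatives added after seeing the data kept samples of 1 positive control set, which gave -0.41 for RIPC against AMC in the high set and -0.36 for RIPC+LAD against RIPC in the low set. These hold 1 animal in an arm, whose spread is assumed to be that of the others. Leaving out the 2 shallowest samples, LAD 2 and LAD 3, was also added later and left 1 LAD animal. In that fit 4 members were lower and 4 higher in RIPC+LAD against LAD. Leaving out 1 sample gave medians between -0.36 and 0.0026 for LAD against AMC, -0.46 and 0.032 for RIPC against AMC, -0.17 and 0.24 for RIPC+LAD against LAD, -0.26 and 0.19 against RIPC, -0.30 and 0.027 against AMC, and 0.012 and 0.43 for the interaction. Over all microRNAs, calls reached 8 in RIPC+LAD against RIPC with only the groups compared, and 4 in LAD against AMC within the high set, where the test above called 0. With 2 or 3 animals a group, the 95% intervals of single members reached 1.49 on the log2 scale between groups. No paired analysis was possible because the labels give no replicate numbers shared between groups.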
